A study of Mus musculus with 9 samples.

Results

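The chemokine receptors described here are the 9 genes Cx3cr1, Ccr1, Ccr2, Ccr7, Ccr9, Ccrl2, Xcr1, Cxcr2 and Cxcr4, out of 19938 genes measured. A gene was taken from the probe set with its single symbol in the platform annotation, and each of the 9 had 1 such probe set. RNA came from 3 cell populations of CX3CR1 gfp+/- mice, in which 1 copy of Cx3cr1 carries a green fluorescent protein (GFP) reporter, and each population was measured on 3 arrays labelled as biological replicates. T zone macrophages (TZM) of lymph nodes were sorted as GFP-high, MertK+, CD11b+ and CD169- cells. Microglia, the resident macrophages of the brain, were sorted as GFP-high, CD11b+ and CD45+ cells. CD8a+DC, dendritic cells known for cross-presentation, were sorted as CD8a+ cells with high CD11c and MHC class II and no CD64. The sample labels place the CD8a+DC in the lymph node, whereas the sorting protocol names the spleen. All 3 populations carry the reporter allele, no wild-type group was measured, and the age of the mice and any pooling of animals are not given in the sources used here. P-values therefore measure the spread between these arrays.

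Chemokine receptors are G protein-coupled receptors of the cell surface that steer cells along gradients of chemokines, small secreted proteins. CCR7 and its ligands CCL19 and CCL21 bring dendritic cells and T cells into the T cell zone, CCR2 draws monocytes out of the bone marrow and into tissue, and CXCR2 acts in the same way on neutrophils. CX3CR1 binds fractalkine, XCR1 marks cross-presenting dendritic cells, and CCRL2 is an atypical receptor that presents chemerin to other cells.

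The populations carried their defining markers. In log2 levels, Clec9a stood between 10.94 and 11.00 in CD8a+DC and Sall1 between 9.58 and 10.23 in microglia. Mertk stood at 10.02 in each TZM array, between 10.38 and 10.80 in microglia and between 3.58 and 3.62 in CD8a+DC. A high Mertk level thus sets both macrophage populations apart from CD8a+DC, but does not set TZM apart from microglia. Mertk is also a gate of the TZM sort. The median over all genes lay between 4.90 and 5.02 on every array. The table gives no detection calls, so 1027 olfactory receptor genes, which are not expected in these cells, served as a guide to the low end of the scale: 95% of them lay below 4.58 in TZM, 4.53 in CD8a+DC and 4.54 in microglia. Probes differ in brightness, so this guide is rough, and a difference measured against a level below it tends to be understated.

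RefSeq sequences, build GRCm38.p6, were at hand for 8 of the 9 genes, all but Ccr7. Of these 8, the 4 with the widest differences between populations are shown by the 250 bases before their start, so that the regulatory sequence can be read beside the levels. Capitals mark matches on either strand to GAGGAA (core of PU.1, a factor of myeloid cells), TGTGGT (RUNX) or TGANTCA (AP-1).
Cx3cr1, chr9:120068297-120068546, minus strand: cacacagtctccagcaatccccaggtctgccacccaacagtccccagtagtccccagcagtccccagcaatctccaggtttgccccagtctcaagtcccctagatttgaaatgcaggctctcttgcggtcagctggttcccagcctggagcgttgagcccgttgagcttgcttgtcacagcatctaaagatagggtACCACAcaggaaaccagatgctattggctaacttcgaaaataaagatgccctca
Xcr1, chr9:123862030-123862279, minus strand: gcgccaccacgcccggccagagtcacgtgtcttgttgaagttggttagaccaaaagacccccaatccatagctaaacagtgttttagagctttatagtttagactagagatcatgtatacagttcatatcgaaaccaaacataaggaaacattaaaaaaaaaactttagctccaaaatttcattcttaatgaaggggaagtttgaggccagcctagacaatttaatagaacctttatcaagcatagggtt
Cxcr2, chr1:74153744-74153993, plus strand: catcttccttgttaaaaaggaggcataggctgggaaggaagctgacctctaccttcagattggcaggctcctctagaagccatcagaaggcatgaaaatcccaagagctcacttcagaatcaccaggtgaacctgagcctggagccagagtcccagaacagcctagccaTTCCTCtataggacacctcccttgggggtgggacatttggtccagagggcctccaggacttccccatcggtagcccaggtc
Cxcr4, chr1:128592300-128592549, minus strand: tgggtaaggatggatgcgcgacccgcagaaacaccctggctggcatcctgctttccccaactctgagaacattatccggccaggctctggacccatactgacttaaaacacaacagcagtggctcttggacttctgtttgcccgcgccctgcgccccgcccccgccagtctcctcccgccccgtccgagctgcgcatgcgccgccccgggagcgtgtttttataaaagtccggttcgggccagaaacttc
The Cx3cr1 window held 1 RUNX match, starting 54 bases before the start, and the Cxcr2 window 1 PU.1 core match at 81 bases before it. Both were read on the opposite strand to the gene. The Xcr1 and Cxcr4 windows held none of the 3 letter strings. Of the 32851 windows of the same length in the table, 23.3% held GAGGAA, 14.0% TGTGGT and 6.75% TGANTCA. The share of G and C was 53.6% before Cx3cr1, 38.8% before Xcr1, 54.4% before Cxcr2 and 61.2% before Cxcr4, against a median of 52.4% over all windows.

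The receptor transcripts differed between the populations. Cxcr2 was high in TZM alone, Xcr1 was high in CD8a+DC alone, and Cxcr4 and Ccr7 were high in both lymphoid populations. Cx3cr1, the reporter gene of the sort, was high in TZM and highest in microglia, both sorted as GFP-high cells. Ccr1 lay below the 95th percentile of the olfactory receptor genes in all 3 populations. The comparisons ask which receptors set TZM apart from a dendritic cell and from another resident macrophage. A gene was called when limma's Benjamini-Hochberg adjusted p over all genes was under 0.05 and the log2 fold change was at least 1 in size.

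**Figure D1:**
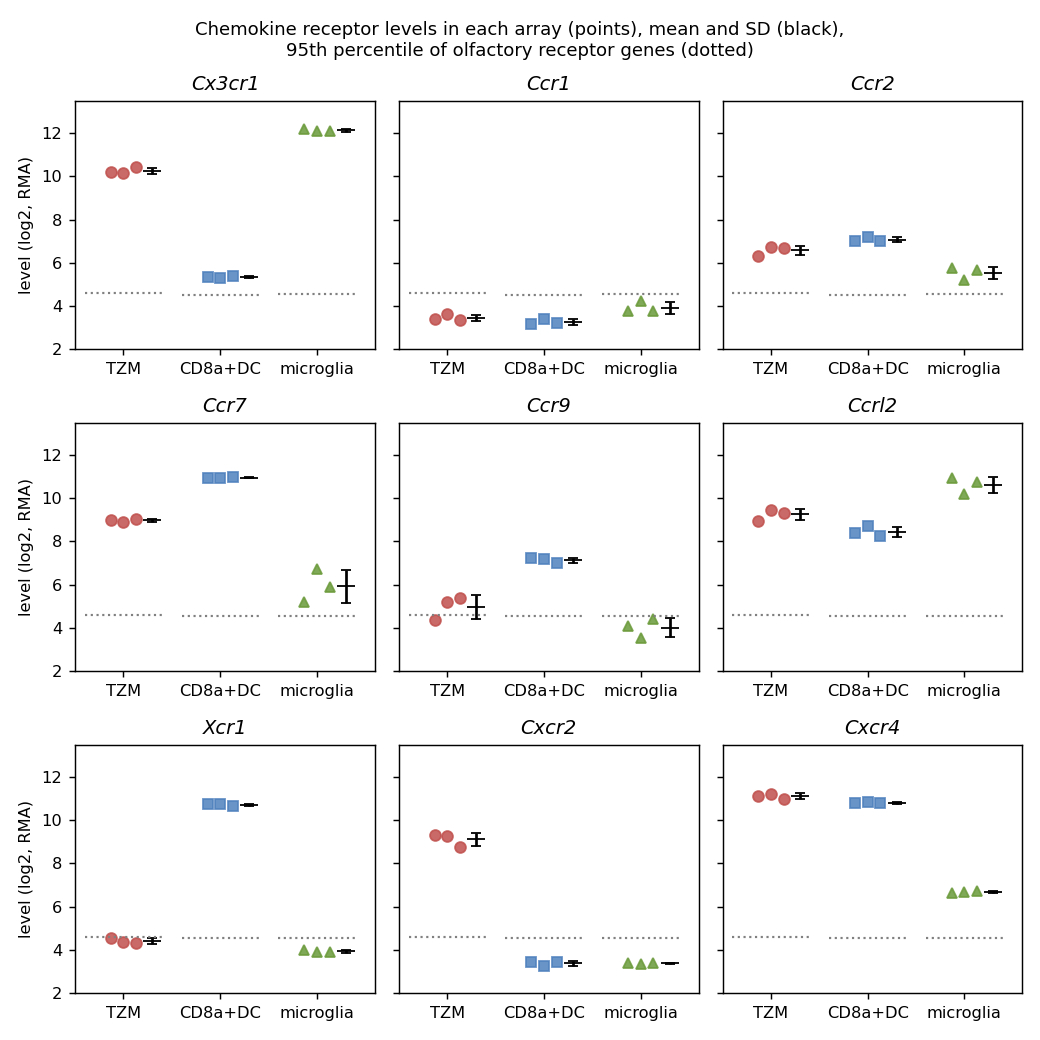
Level of each receptor gene (y axis, log2 RMA units) in TZM, CD8a+DC and microglia (x axis). Coloured points are single arrays, the black bar is the mean with its SD (n = 3), and the dotted line is the 95th percentile of 1027 olfactory receptor genes in that population. Cxcr2 was above the line in TZM alone and Xcr1 in CD8a+DC alone, and the 3 microglia arrays spread most for Ccr7, from 5.20 to 6.72.

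Cxcr2 encodes the receptor for the CXCL1 and CXCL2 group of chemokines and is best known from neutrophils. Its level was 9.29, 9.27 and 8.77 in the TZM arrays, 3.41, 3.24 and 3.45 in CD8a+DC and 3.38, 3.34 and 3.37 in microglia. Every TZM array was above every other array, and the other 2 populations overlapped at the low end of the scale. The difference was 5.74 log2 units to CD8a+DC (53.4-fold, SE 0.14, limma adjusted p = 4.2e-08) and 5.74 to microglia (53.6-fold, SE 0.14, limma adjusted p = 4.5e-08). Between microglia and CD8a+DC it was -0.0038 (SE 0.14, limma adjusted p = 0.99). Bulk RNA of sorted cells cannot tell a smaller number of cells that carry a transcript from less transcript per cell.

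Neutrophils carry CXCR2, and their markers were therefore set beside Cxcr2. S100a8, a calcium-binding protein abundant in neutrophils, was at 5.89, 9.28 and 7.32 in TZM replicates 1, 2 and 3 and between 3.86 and 4.32 in the other 6 arrays. S100a9, its partner, was at 6.21, 9.39 and 7.89 in TZM. Both were highest in replicate 2 and lowest in replicate 1. Csf3r, the receptor for the neutrophil growth factor G-CSF, was at 7.71 ± 0.19 (SD, n = 3) in TZM, 4.51 ± 0.11 in CD8a+DC and 9.93 ± 0.05 in microglia, whose Cxcr2 was at the low end. The granule protein gene Ngp was at 4.98, 5.75 and 5.43 in TZM and between 4.32 and 4.68 in the other 6 arrays. Its differences of 0.93 to CD8a+DC and 0.85 to microglia (limma adjusted p = 0.0061 and 0.011) stayed under the minimum fold change. Camp, which encodes the antimicrobial peptide precursor cathelicidin, had a mean of 4.74 in TZM, above the low-end guide there alone, and its differences did not pass the test. Ly6g (3.13, 3.13 and 3.24 in TZM), Mmp8, Mmp9, Retnlg, Ltf, Lcn2 and Mpo had means under that guide in all populations, and those of Elane and Cd177 were above it in all populations and were not called. Of the 14 markers, 3 were higher in TZM than in CD8a+DC and 0 lower (beside 4.71% and 4.03% of all genes). Against microglia, 2 were higher in TZM and 1 lower (beside 4.25% and 3.40%). Of the 14, 7 had a mean above the low-end guide in TZM, 3 in CD8a+DC and 3 in microglia. The mean level of the list ran from 4.70 to 5.32 in the TZM arrays, 4.18 to 4.23 in CD8a+DC and 4.53 to 4.57 in microglia. Without TZM replicate 1, 2 or 3 the Cxcr2 difference was 5.65, 5.66 and 5.91 in turn, to CD8a+DC as to microglia. Every TZM array held more S100a8 than the other 6 arrays, so leaving 1 out cannot decide the part of neutrophils. The part of neutrophils in the Cxcr2 level was not tested.

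**Figure D2:**
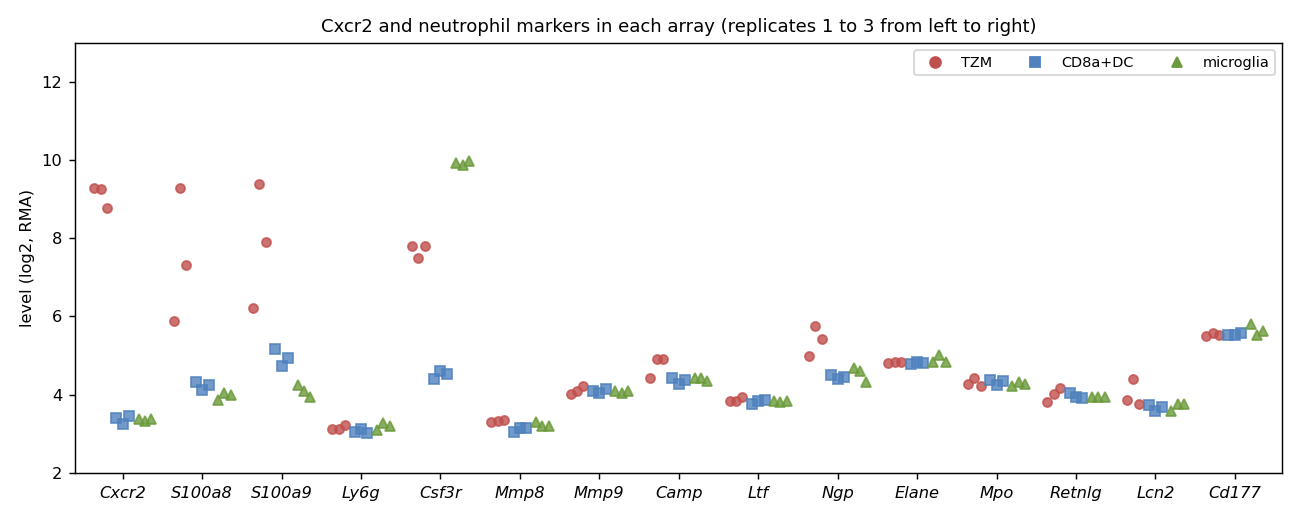
Levels (y axis, log2 RMA units) of Cxcr2 and the 14 neutrophil markers (x axis) in each array, with replicates 1 to 3 of a population from left to right. In TZM, S100a8 ran from 5.89 to 9.28 Ngp from 4.98 to 5.75 and Cxcr2 from 8.77 to 9.29, while Ly6g lay between 3.03 and 3.26 in all 9 arrays.

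Xcr1 encodes the receptor for XCL1, a chemokine of activated CD8 T cells and natural killer cells. Its level was 10.74, 10.73 and 10.65 in CD8a+DC, 4.55, 4.36 and 4.29 in TZM and 4.01, 3.90 and 3.88 in microglia. The 3 populations did not overlap, but TZM and microglia both lay below the guide to the low end. The difference was -6.31 between TZM and CD8a+DC (SE 0.08, limma adjusted p = 3.0e-09) and -6.78 between microglia and CD8a+DC (SE 0.08, limma adjusted p = 7.6e-10). TZM stood 0.47 above microglia (limma adjusted p = 0.0031), under the minimum fold change.

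Ccr7 encodes the receptor that guides cells to the T cell zone. It was at 10.93, 10.93 and 10.98 in CD8a+DC, 9.02, 8.91 and 9.04 in TZM and 5.20, 6.72 and 5.89 in microglia. The order was CD8a+DC, TZM and microglia, with no overlap between neighbours. TZM were lower than CD8a+DC by -1.96 (SE 0.31, limma adjusted p = 0.0022) and higher than microglia by 3.06 (8.31-fold, SE 0.31, limma adjusted p = 1.8e-04). The fit pools the spread of all 3 populations, and the microglia arrays gave most of it (SD 0.76, against 0.07 in TZM and 0.03 in CD8a+DC). With only TZM and CD8a+DC in the fit, the difference between them remained called.

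Genes of migratory mature dendritic cells, which carry CCR7, had list means in the same order. The mean level was 8.50 to 8.59 in the CD8a+DC arrays, 7.42 to 7.48 in TZM and 5.78 to 5.96 in microglia (7 genes measured of 9 listed). Of these 7 genes, 4 were lower and 0 higher in TZM than in CD8a+DC (beside 4.03% and 4.71% of all genes). Against microglia, 5 were higher and 0 lower in TZM (beside 4.25% and 3.40%). Ccl22 was at 8.09 in TZM against 9.29 in CD8a+DC, and Apol7c, Socs2 and Nudt17 were the other lower genes. Ccl17 differed the other way, at 5.91 in TZM and 4.94 in CD8a+DC (limma adjusted p = 0.0074), under the minimum fold change. Fscn1, which encodes an actin-bundling protein, had its highest mean in microglia, at 10.05 against 9.47 in TZM and 9.67 in CD8a+DC. T cells also carry CCR7, and the mean of 11 T cell markers was 5.33 to 5.56 in TZM, 4.83 to 4.92 in CD8a+DC and 4.75 to 4.80 in microglia. Much of that gap comes from Cd28 alone, at 9.07 in TZM, 4.23 in CD8a+DC and 4.24 in microglia. The median difference of the 11 markers was 0.37 between TZM and CD8a+DC and 0.45 between TZM and microglia. Of these markers 1, Cd28, was higher in TZM than in CD8a+DC and 0 were lower (beside 4.71% and 4.03% of all genes). Against microglia, 3 were higher and 1 lower in TZM (beside 4.25% and 3.40%). The T cell receptor subunit gene Cd3d was at 4.89 in TZM and 4.10 in CD8a+DC. The part of such cells in the Ccr7 levels was not tested.

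Cxcr4, the receptor for CXCL12, was at 11.14, 11.23 and 10.99 in TZM, 10.78, 10.85 and 10.79 in CD8a+DC and 6.64, 6.66 and 6.74 in microglia. Both lymphoid populations were far above microglia, by 4.44 for TZM (21.7-fold, SE 0.07, limma adjusted p = 1.3e-08) and 4.13 for CD8a+DC (the fitted microglia minus CD8a+DC difference was -4.13, SE 0.07, limma adjusted p = 4.5e-09). The TZM arrays lay above the CD8a+DC arrays by 0.31 (SE 0.07, limma adjusted p = 0.016), which is under the minimum fold change.

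Cx3cr1 served the sort through its reporter, so its levels are given as a description with no test. It was at 10.18, 10.15 and 10.42 in TZM, 12.18, 12.10 and 12.09 in microglia and 5.35, 5.29 and 5.40 in CD8a+DC. The 3 populations did not overlap. TZM stood 4.91 log2 units above CD8a+DC and had a difference of -1.87 from microglia, which were also sorted as GFP-high cells. One copy of the gene is replaced in every sample, and the CD8a+DC gate did not use GFP.

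Ccr2, the monocyte receptor for CCL2, was at 6.32, 6.72 and 6.68 in TZM, 6.99, 7.20 and 7.00 in CD8a+DC and 5.74, 5.22 and 5.66 in microglia. The order was CD8a+DC, TZM and microglia, with no overlap. The difference of -0.49 between TZM and CD8a+DC did not pass the test (SE 0.16, limma adjusted p = 0.065). TZM were higher than microglia by 1.03 (SE 0.16, limma adjusted p = 0.0019), just past the minimum fold change. The call ended without TZM replicate 2 (0.96), TZM replicate 3 (0.98) or microglia replicate 2 (0.87), and with array weights (0.90). Microglia were lower than CD8a+DC by -1.52 (limma adjusted p = 1.3e-04). Of 7 monocyte markers measured, 2 were higher and 0 lower in TZM than in microglia (beside 4.25% and 3.40% of all genes). Plac8 was 1 of these 2. Against CD8a+DC, 0 were higher and 1, again Plac8, was lower in TZM (beside 4.71% and 4.03%). The list means were 4.43 to 5.09 in TZM, 4.92 to 5.02 in CD8a+DC and 4.18 to 4.36 in microglia. Plac8, at 10.60 in CD8a+DC, 6.39 in TZM and 4.03 in microglia, raises the CD8a+DC mean of the list. The part of monocytes in the Ccr2 levels was not tested.

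Ccr9, the receptor for CCL25, known from gut-homing lymphocytes and plasmacytoid dendritic cells, was at 7.22, 7.18 and 6.99 in CD8a+DC. It was at 4.35, 5.19 and 5.40 in TZM and 4.10, 3.52 and 4.39 in microglia, and these 2 populations overlapped. TZM were lower than CD8a+DC by -2.15 (SE 0.29, limma adjusted p = 8.9e-04), and microglia by -3.13 (SE 0.29, limma adjusted p = 6.9e-05). TZM stood 0.98 above microglia (limma adjusted p = 0.0498), under the minimum fold change, and the gene was called without TZM replicate 1 (1.30, limma adjusted p = 0.0082) or microglia replicate 3 (1.17, limma adjusted p = 0.043). Of 7 plasmacytoid dendritic cell markers, 3 were lower (Ly6d, Cox6a2 and Pacsin1) and 2 higher (Bst2 and Tcf4) in TZM than in CD8a+DC. Beside them, 4.03% of all genes were lower and 4.71% higher. Siglech, which is also on the microglia marker list, was at 11.36 in microglia, 8.32 in CD8a+DC and 7.98 in TZM, and it raises the microglia mean of the plasmacytoid list. The mean level of the 7 markers was 7.40 to 7.60 in CD8a+DC, 7.12 to 7.22 in TZM and 6.96 to 6.98 in microglia. The part of plasmacytoid dendritic cells in the Ccr9 levels was not tested.

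Ccrl2, the atypical chemerin receptor, was at 8.96, 9.46 and 9.32 in TZM, 8.39, 8.69 and 8.26 in CD8a+DC and 10.93, 10.21 and 10.76 in microglia. The order was microglia, TZM and CD8a+DC, with no overlap. TZM were lower than microglia by -1.38 (SE 0.21, limma adjusted p = 0.0018), and microglia were higher than CD8a+DC by 2.18 (SE 0.21, limma adjusted p = 7.8e-05). The 0.80 between TZM and CD8a+DC (limma adjusted p = 0.027) stayed under the minimum fold change. Ccr1, a receptor for CCL3 and CCL5, was at 3.41, 3.61 and 3.33 in TZM, 3.15, 3.41 and 3.21 in CD8a+DC and 3.75, 4.24 and 3.77 in microglia. Microglia lay above CD8a+DC by 0.67 (limma adjusted p = 0.0088), and no Ccr1 difference reached the minimum fold change.

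Cx3cr1 is left out of the counts that follow, as a gene of the sort, which leaves 8 receptors. Between TZM and CD8a+DC, 4 of the 8 were called, 1 higher (Cxcr2) and 3 lower (Xcr1, Ccr9 and Ccr7), beside 8.74% of all 19938 genes (4.71% higher in TZM, 4.03% lower). Between TZM and microglia, 5 were called, 4 higher (Cxcr2, Cxcr4, Ccr7 and Ccr2) and 1 lower (Ccrl2), beside 7.65% of all genes (4.25% higher in TZM, 3.40% lower). Between microglia and CD8a+DC, 6 were called, 1 higher (Ccrl2) and 5 lower (Xcr1, Ccr7, Cxcr4, Ccr9 and Ccr2), beside 11.2% of all genes (5.15% higher in microglia, 6.01% lower). In each of the 3 comparisons the arrays of both populations did not overlap for 7 of the 8 receptors, as for 32.3%, 30.5% and 37.8% of all genes in turn. The comparisons share arrays, and the receptors were chosen with results of these data known, so the counts describe these genes only. The median difference of the 8 was -0.15, 1.01 and -2.33 in the 3 comparisons in turn, against 0.02, 0.01 and 0.01 over all genes.

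**Figure D3:**
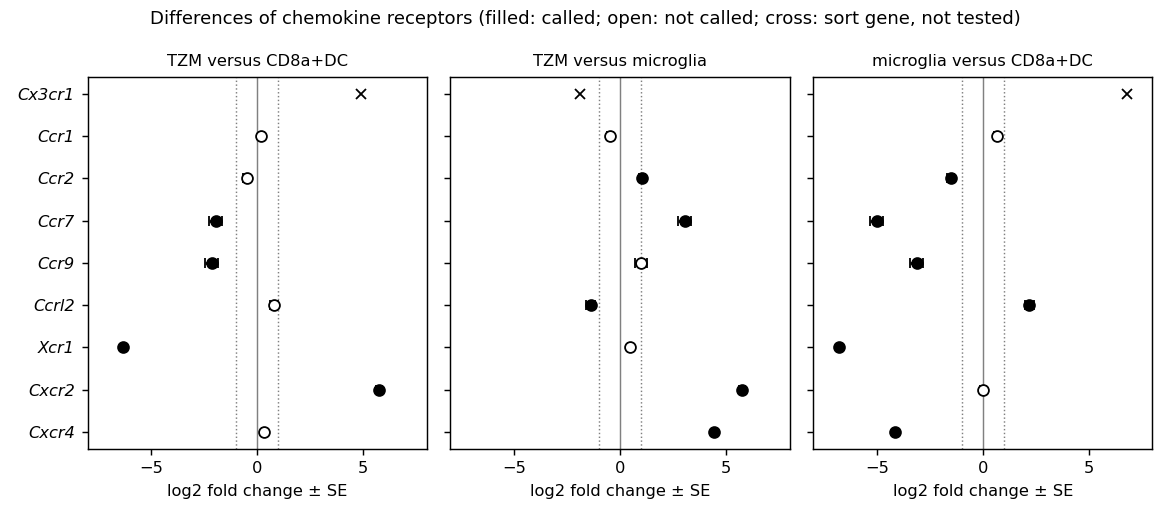
Log2 fold change (x axis, ± SE of the limma fit) of each receptor gene (y axis) in the 3 comparisons, first-named population minus second. Filled points were called, open points were not, and dotted lines mark the minimum fold change of 1. From the left panel to the right, Xcr1 stood at -6.31, 0.47 and -6.78, and Cxcr2 at 5.74, 5.74 and -0.0038. Cx3cr1, the reporter gene of the sort, is a cross at its difference, with no test and no SE.

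By the smallest root mean square difference of centred levels over the 9 arrays, the genes most like each called receptor and Cx3cr1 were sought. P2ry12, a purinergic receptor of microglia, followed Cx3cr1 within 0.12 log2 units, and Tmem119 and Pmp22 came next at 0.24 and 0.35. Gpr141b, Cd8a and Clec9a were nearest to Xcr1, at 0.30, 0.40 and 0.41, and Cd8a was a gate of that sort. Clec4n, a C-type lectin receptor, Tgm1, a transglutaminase, and Cfb, complement factor B, were nearest to Cxcr2, at 0.23, 0.31 and 0.32. Lgals3, which encodes galectin-3, followed Cxcr4 within 0.12, ahead of Uck2 (0.20) and Iqgap1 (0.21). Nearest to Ccr7 were Dock5, Itgax and Ly75 at 0.41 to 0.48, of which Itgax encodes the CD11c of the dendritic cell gate. Tbc1d8, Lsp1 and Cpne2 were nearest to Ccr9 (0.24 to 0.30), Tom1l1, Lilra5 and Nlrp3 to Ccrl2 (0.15 to 0.20), and Sem1, Mrpl54 and Rpsa to Ccr2 (0.14 to 0.15).

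In RefSeq's gene order, 6 of the 9 genes lie on chromosome 9, with Cxcr2 and Cxcr4 on chromosome 1 and Ccr7 on chromosome 11. Xcr1 and Ccr1 are direct neighbours among protein-coding genes, and Xcr1 has Cxcr6 on its other side. Ccr9 has Cxcr6 and Xcr1 within 3 coding genes. Both Ccr9 and Xcr1 were highest in CD8a+DC, while Cxcr6 was at 5.84 in TZM, 6.05 in CD8a+DC and 5.98 in microglia and was not called in any comparison. Cx3cr1 is next to Ccr8 (3.29 in TZM and 3.22 in microglia, not called), and Cxcr2 is next to Cxcr1 (4.45 in TZM, 4.48 in CD8a+DC and 4.43 in microglia, not called). Cross-hybridisation of probes between these related genes was not tested.

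Of 15 other chemokine and atypical receptors measured, 2 were called between TZM and CD8a+DC (8.74% of all genes), 0 between TZM and microglia (7.65%) and 3 between microglia and CD8a+DC (11.2%). Cmklr1, a signalling receptor for chemerin, the protein that CCRL2 presents, was higher than in CD8a+DC both in TZM (4.83, SE 0.15, limma adjusted p = 1.6e-07) and in microglia (4.54, limma adjusted p = 1.3e-07), with levels of 9.28 in TZM and 8.99 in microglia. Cxcr3, the receptor for CXCL9 and CXCL10, was lower than in CD8a+DC in TZM (-2.74, limma adjusted p = 7.0e-06) and in microglia (-2.81, limma adjusted p = 4.4e-06). Ackr3, an atypical receptor for CXCL12, was at 3.74 in CD8a+DC and 3.86 in TZM, both under the low-end guide. Its microglia arrays ran from 4.31 to 5.07, around the guide of 4.54 there. It was higher in microglia than in CD8a+DC by 1.02 (limma adjusted p = 0.0023). Its call ended with median centring (0.99) and without CD8a+DC replicate 1 (0.98), microglia replicate 1 (0.86) or microglia replicate 2 (0.95). For the 0 called by limma between TZM and microglia, 3 of the 15 had an unadjusted p under 0.05. Ackr3 was the nearest there, at -0.89 (limma adjusted p = 0.0066), and without microglia replicate 3 it was called as lower in TZM (-1.11, limma adjusted p = 1.5e-04). The other 12 were called in no comparison.

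Of the 22 genes measured for ligands of the 9 receptors, 8 were higher and 1 lower in TZM than in CD8a+DC (beside 4.71% and 4.03% of all genes), 4 higher and 4 lower than in microglia (beside 4.25% and 3.40%), and 8 were higher and 2 lower in microglia than in CD8a+DC (beside 5.15% and 6.01%). For CCR2, Ccl12 was at 11.43 in TZM, 3.92 in CD8a+DC and 10.92 in microglia. Ccl7 was higher than in CD8a+DC by 4.03 in TZM (SE 0.69, limma adjusted p = 0.0031) and 3.61 in microglia (SE 0.69, limma adjusted p = 0.0045). Its arrays spread widely, from 7.10 to 9.52 in microglia, 4.15 to 5.71 in CD8a+DC and 8.37 to 9.60 in TZM. Ccl8, whose receptor use was not examined here, was higher in TZM by 6.70 against CD8a+DC and 5.75 against microglia (limma adjusted p = 2.6e-06 and 8.4e-06). For CXCR2, Cxcl2 was at 9.74 in TZM, 6.51 in CD8a+DC and 8.64 in microglia, where the arrays ran from 7.28 to 9.54. It was higher in TZM than in CD8a+DC by 3.23 (SE 0.49, limma adjusted p = 0.0017). For CCR7, Ccl19 was at 8.68 in TZM, 6.97 in CD8a+DC and 5.78 in microglia. It was called as higher in TZM than in microglia by 2.90 and than in CD8a+DC by 1.71 (limma adjusted p = 2.0e-06 and 4.0e-05). In microglia it was lower than in CD8a+DC by -1.19 (limma adjusted p = 2.6e-04). Ccl5, a ligand of CCR1, was higher in TZM than in microglia by 4.53 and lower in microglia than in CD8a+DC by -5.20 (limma adjusted p = 1.8e-06 and 4.4e-07). Ccl4, an inflammatory chemokine related to CCL3, was lower in TZM than in microglia by -3.64 (limma adjusted p = 1.2e-06). Ccl9 was higher in microglia than in CD8a+DC by 4.31 (limma adjusted p = 8.5e-08). The Ccl21 genes share probe sets and were not analysed here.

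Of 29 genes of receptor signalling and desensitisation, 0 were higher and 1 lower in TZM than in CD8a+DC by limma (beside 8.74% of all genes called), and 17 had an unadjusted p under 0.05. The lower gene was Rgs18, a regulator that shortens G protein signals, which was lower by -2.83 (limma adjusted p = 1.3e-06) and also lower in microglia than in CD8a+DC by -2.87 (limma adjusted p = 8.3e-07). Against microglia, 1 was higher in TZM and 4 lower (beside 7.65%). Grk3, a kinase that desensitises receptors, was higher by 1.40 (limma adjusted p = 3.6e-04), while Elmo1, an activator of Rac with the DOCK proteins, was lower by -1.83 (limma adjusted p = 8.1e-06), Pik3cg by -1.67 (limma adjusted p = 1.0e-04) and Plcb3 by -1.28 (limma adjusted p = 0.0018). Between microglia and CD8a+DC 4 were higher and 4 lower (beside 11.2%), among them Arrb2, a beta-arrestin, at 1.50 (limma adjusted p = 1.7e-06), Grk3 at -2.17 (limma adjusted p = 1.5e-05) and Grk5 at -1.85 (limma adjusted p = 1.6e-04).

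**Figure D4:**
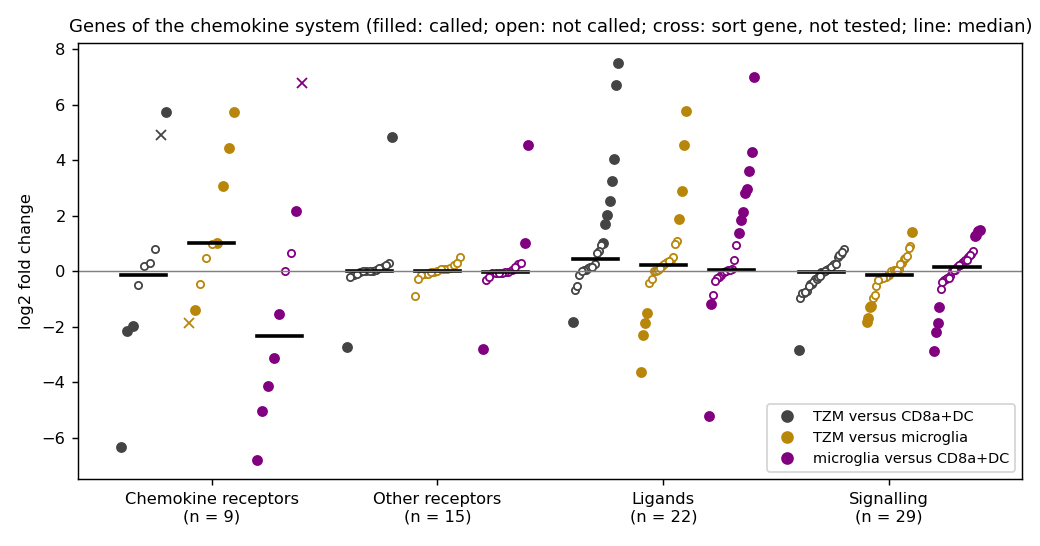
Log2 fold change (y axis) of each measured gene of the chemokine system in the 3 comparisons (colours), for the 9 chemokine receptors, 15 other receptors, 22 ligands and 29 signalling genes (x axis). Filled points were called, open points were not, a cross is the sort gene Cx3cr1 (not tested), and the line is the median of the tested genes; no other receptor is filled for TZM against microglia, and the ligands reach 7.51 (Ccl12, TZM against CD8a+DC).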

How the data were processed

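RNA of 3 sorted populations was hybridised to Affymetrix mouse gene arrays, 3 per population. The deposited values are log2 levels per probe set. Per the submitters' processing notes, the authors used RMA (robust multi-array averaging: background correction, normalization between arrays and a summary of probes) in Affymetrix Expression Console 1.3.1. The table held 35556 probe sets, of which 21789 had 1 gene symbol in the platform annotation, and 21698 of these were matched to RefSeq (GRCm38.p6) by Entrez identifier. The probe set with the highest mean was kept for each of 19938 genes. Probe sets with several symbols (1621) or none (12146) were left out of the gene tests.

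All 9 arrays entered 1 limma 3.58.1 fit (R 4.3.3, lmFit and eBayes, population as the only term). Members other than the sort gene Cx3cr1 were tested within this fit with no level filter, and 8 of the 9 members, all but Ccr1, reached a level of 6 in at least 3 arrays. The fit was tested on simulated data. Alternatives were no minimum fold change, the level filter, median centring, quantile normalization, the mean of probe sets, every probe set, only the compared groups, a trended, robust variance model, weights per array, a block for the replicate number, and leaving out each array. Named were all members, up to 4 called genes per pathway list and comparison by size of change, the 3 genes most like each called member and Cx3cr1 (predicted genes, clones and small RNAs passed over), marker lists with their defining genes, and neighbouring receptors. Marker genes outside this rule were chosen after their values were seen. These were Cd3d, Cd3g, Cd28, Plac8, Ttr, the genes of the neutrophil and migratory dendritic cell lists, and those named from the plasmacytoid dendritic cell list. The members and lists were chosen with earlier results of these data known. List genes left unmatched were not analysed here. The number of arrays limits the precision.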

Additional observations from a re-analysis of the deposited data

How the results depend on the processing

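Across the alternatives, 442 of 453 values for a receptor in a comparison (Cx3cr1 left out) kept their side of both thresholds and 0 reversed. Of the others, 5 gained a call only because the minimum fold change was dropped (Ccrl2 and Cxcr4 for TZM against CD8a+DC, Ccr9 and Xcr1 for TZM against microglia, and Ccr1 for microglia against CD8a+DC), 4 were the lost Ccr2 calls and 2 the gained Ccr9 calls given above with the arrays that decide them. Many of these values could not change in size. Each receptor had 1 probe set, so the mean of probe sets and every probe set gave the same fold change as the main fit. So did the level filter, only the compared groups, the trended variance model, the replicate block and leaving out an array of the third population. In these settings only the adjusted p could move. The level filter left out Ccr1. With each array left out, the count of called receptors stayed at 4 for TZM against CD8a+DC, ran from 4 to 6 for TZM against microglia and stayed at 6 for microglia against CD8a+DC. With the replicate block the counts were 4, 5 and 6, as without it. Same-numbered arrays of different populations correlated at -0.145 to 0.128 in their deviations from population means, and 1 of 9 pairs passed 0.1. In 7 of 18 cases an array correlated best with its own number, so the numbers were not taken to pair the arrays. Dropping the minimum fold change raised the signalling genes called from 1 to 13 (TZM against CD8a+DC), from 5 to 14 (TZM against microglia) and from 8 to 14 (microglia against CD8a+DC). The single signalling call for TZM against CD8a+DC became 0 with the level filter, which leaves out Rgs18, and 2 without TZM replicate 2 or CD8a+DC replicate 2. Other receptors called for TZM against microglia rose from 0 to 1 with no minimum fold change or without microglia replicate 3. S100a9 lost its call for TZM against CD8a+DC with only these groups in the fit (limma adjusted p = 0.052, log2 fold change 2.88). Levels under the olfactory receptor guide limit what can be read from Ccr1 in every population, Cxcr2 in CD8a+DC and microglia, Xcr1 in TZM and microglia, and Ccr9 in microglia.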

Other observations

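Cd28, which encodes a co-stimulatory receptor of T cells, stood apart from the other T cell markers. It was at 9.19, 9.50 and 8.54 in TZM and between 4.02 and 4.37 in the other 6 arrays, whereas the T cell receptor subunit gene Cd3g was at 4.44 ± 0.54 in TZM (SD, n = 3), 3.57 ± 0.04 in CD8a+DC and 3.29 ± 0.05 in microglia. Cd28 was higher in TZM by 4.84 against each of the other populations, and this gene was singled out after its values were seen.

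Ccr7 varied more among the microglia arrays than any other receptor described here did within a population, with 5.20, 6.72 and 5.89 in replicates 1, 2 and 3. Ttr, an abundant transcript of the choroid plexus, was at 12.15, 5.48 and 11.83 in the same arrays. The relation of these values was not tested.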
